A study of Mus musculus with 27 samples.

Results

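The complement genes of the liver were described as 33 listed genes that code for complement components, regulators and receptors, out of 41388 genes in the count files. The list was matched to the Ensembl identifiers of the files through their GRCm38 symbols, and all 33 were found. Messenger RNA had been sequenced from whole livers of female C57BL/6 mice whose ovaries had been removed, labelled as 120 days old, with 3 livers in each of 9 groups. In 8 groups the mice had been gavaged with TCDD (2,3,7,8-tetrachlorodibenzo-p-dioxin, a ligand of the aryl hydrocarbon receptor) in sesame oil, and the remaining group received the oil vehicle. The doses were 0.01, 0.03 and 0.1, then 0.3, 1 and 3, and finally 10 and 30 µg/kg. Dosing went on for 92 days at intervals of 4 days, although the same label also uses the word daily. The series is titled as a study of dose-dependent gene expression in TCDD-elicited liver fibrosis, and the comparisons below ask how the complement genes differed between each dose and vehicle. Removal of the ovaries was common to all 9 groups, so no group stands for an intact female. The labels do not say in words that each library came from its own mouse, so p-values measure the spread between these libraries.

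Complement is a cascade of plasma proteins that marks microbes and damaged cells. It can be started by C1 on antibodies (the classical route), by lectins on sugars (the lectin route) or by spontaneous turnover of C3 with factors B and D (the alternative route). All routes cleave C3 and then C5, and the late components assemble into a pore, the membrane attack complex. Hepatocytes make most of the soluble components, whereas C1q, properdin and ficolin A come largely from macrophages, and the receptors for the released peptides C3a and C5a sit mainly on myeloid cells. From this general knowledge, not from these bulk libraries, 21 members were called hepatocyte-made, 7 macrophage-made (C1qa, C1qb, C1qc, Cfp, Fcna, C3ar1 and C5ar1) and 5 of other source (C7, Cfd, Colec11, Cd55 and Cd59a).

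RefSeq promoter sequence (GRCm38.p6) was at hand for 25 of the 33 members, and 250 bases before the start were searched on both strands. The members without an entry were C2, Clu, Masp1, C4b, Cfi, C1qa, Cfb and Serping1. The stretches of 3 hepatocyte-made members that were lower at the highest dose, and of the member with the largest rise, are shown 5′ to 3′ in the direction of the gene. The 3 are among the members that hold GTTAAT or its complement ATTAAC, which is in capitals. Of the motifs searched GTTAAT was the one found in the most members.
C8a, chr4:104876399-104876648, minus strand: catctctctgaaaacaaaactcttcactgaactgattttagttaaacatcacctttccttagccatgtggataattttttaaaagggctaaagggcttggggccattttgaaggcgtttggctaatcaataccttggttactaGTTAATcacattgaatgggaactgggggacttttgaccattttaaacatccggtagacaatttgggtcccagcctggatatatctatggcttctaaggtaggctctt
Hc, chr2:35061413-35061662, minus strand: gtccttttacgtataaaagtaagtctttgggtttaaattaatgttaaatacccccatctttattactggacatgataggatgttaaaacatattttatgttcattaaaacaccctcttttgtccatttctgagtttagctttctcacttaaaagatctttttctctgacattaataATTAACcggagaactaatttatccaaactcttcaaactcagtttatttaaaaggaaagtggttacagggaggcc
C4bp, chr1:130661619-130661868, minus strand: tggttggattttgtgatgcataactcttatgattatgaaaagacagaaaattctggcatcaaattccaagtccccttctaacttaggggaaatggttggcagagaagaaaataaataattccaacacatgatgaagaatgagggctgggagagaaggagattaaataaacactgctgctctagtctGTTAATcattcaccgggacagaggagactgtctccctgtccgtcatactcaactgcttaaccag
C5ar1, chr7:16259339-16259588, minus strand: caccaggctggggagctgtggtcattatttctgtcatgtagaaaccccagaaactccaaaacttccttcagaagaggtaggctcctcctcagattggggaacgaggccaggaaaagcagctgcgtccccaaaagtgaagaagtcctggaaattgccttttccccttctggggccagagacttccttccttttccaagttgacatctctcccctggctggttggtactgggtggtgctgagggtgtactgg
The match begins 107 bases before the start in C8a, 74 bases before it in Hc and 64 bases before it in C4bp, and the C5ar1 stretch holds none of the motifs searched. GTTAAT occurred in 8 of the 25 members (C1ra, C4bp, C7, C8a, C8b, Cfp, Hc and Vtn), against 6.43% of all 32851 promoters in the table. Of these 8, C1ra, C4bp, C8a and Hc were lower at 30 µg/kg and the other 4 were not called. Among all tested members 15 of 32 were lower, beside 19.4% of all genes. C1s1, C8g, C9, Masp2, Mbl1, Mbl2, Fcna and Colec11 were lower too, and their windows held no GTTAAT on either strand. A link between this motif and the fall was not tested. GCGTG, the core at which the ligand-bound aryl hydrocarbon receptor binds, occurred in 3 of 25 (Cd55, Cfp and Vtn), against 28.2% of all promoters. GAGGAAGT, an ETS-type motif, occurred in C1qc alone, against 2.44% of all promoters, and CAAAGTCCA (an HNF4-type motif, in 0.384% of all promoters) and TTGCGCAA (a C/EBP-type motif, in 0.164%) occurred in no member. None of these motifs contains another. A match in these windows is a run of letters and no measured binding.

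The files held 434011 counts for the second liver at 0.3 µg/kg and 11050391 to 30873586 counts for each of the other 26 libraries. Levels are given as CPM, counts scaled to a common library size with TMM factors, and tests are edgeR quasi-likelihood tests over 15121 genes with Benjamini-Hochberg adjustment. A gene is called higher or lower at an adjusted p below 0.05. The dose labels held for Cyp1a1, the classic target of the receptor, which had 6938, 7943 and 6721 CPM at 30 µg/kg, against 3.69, 3.19 and 2.49 CPM in vehicle. Of the complement members 32 passed the low-count filter. Cfd, the factor D gene, did not: it had 30 counts in the second liver at 30 µg/kg, 7 in the third at 3 µg/kg, 3 in the first at 0.3 µg/kg and 2 in the third vehicle liver, and 0 in every other library. Cfd is mainly made by fat cells, and Adipoq, their adiponectin gene, was highest in that liver as well, at 0.346 CPM among the livers of 30 µg/kg, while the fat cell genes Plin1 and Lep were at 0.0768 and 0 CPM there. Summed over 5 fat cell markers the livers held 13.9 to 15.7 CPM at 30 µg/kg and 6.02 to 6.34 CPM in vehicle. Most of this sum was Fabp4, with means of 11.4 CPM at 30 µg/kg and 5.17 CPM in vehicle. Adipoq, Plin1 and Lep did not pass the filter. Of the 2 tested, Fabp4 and Cidec, 2 were called higher, beside 18% of all genes, and Lep was at 0 in both groups. The part of such tissue in the Cfd counts was not tested.

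At 30 µg/kg 3 of the 32 tested members were called higher and 15 lower than in vehicle, beside 18% of all tested genes called higher and 19.4% called lower. Under RLE scaling the members split into 4 higher and 15 lower, while 59.3% of all calls were higher, against 48.1% under TMM, and the median of all genes was at 0.10. Of the 15 lower members 13 were hepatocyte-made, a class that holds 21 of the 32 tested. The source classes were chosen with earlier results of these data known. Among the 21 hepatocyte-made members 13 fell and 0 rose by edgeR, and 0 rose by DESeq2 or at an unadjusted p below 0.05 as well. Their median log2 fold change was -0.79, while that of all genes was -0.01 under TMM. Among the 7 macrophage-made members C3ar1 and C5ar1 rose, Fcna fell and 4 were not called, with a median of 0.54. Of the members of other source Cd59a rose and Colec11 fell. Groups did not overlap in CPM for 5 members on the higher side and 16 on the lower side, beside 23.9% and 25.9% of all genes. In whole liver a lower level can reflect fewer cells of a type or less RNA per cell, and these cannot be told apart.

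**Figure D1:**
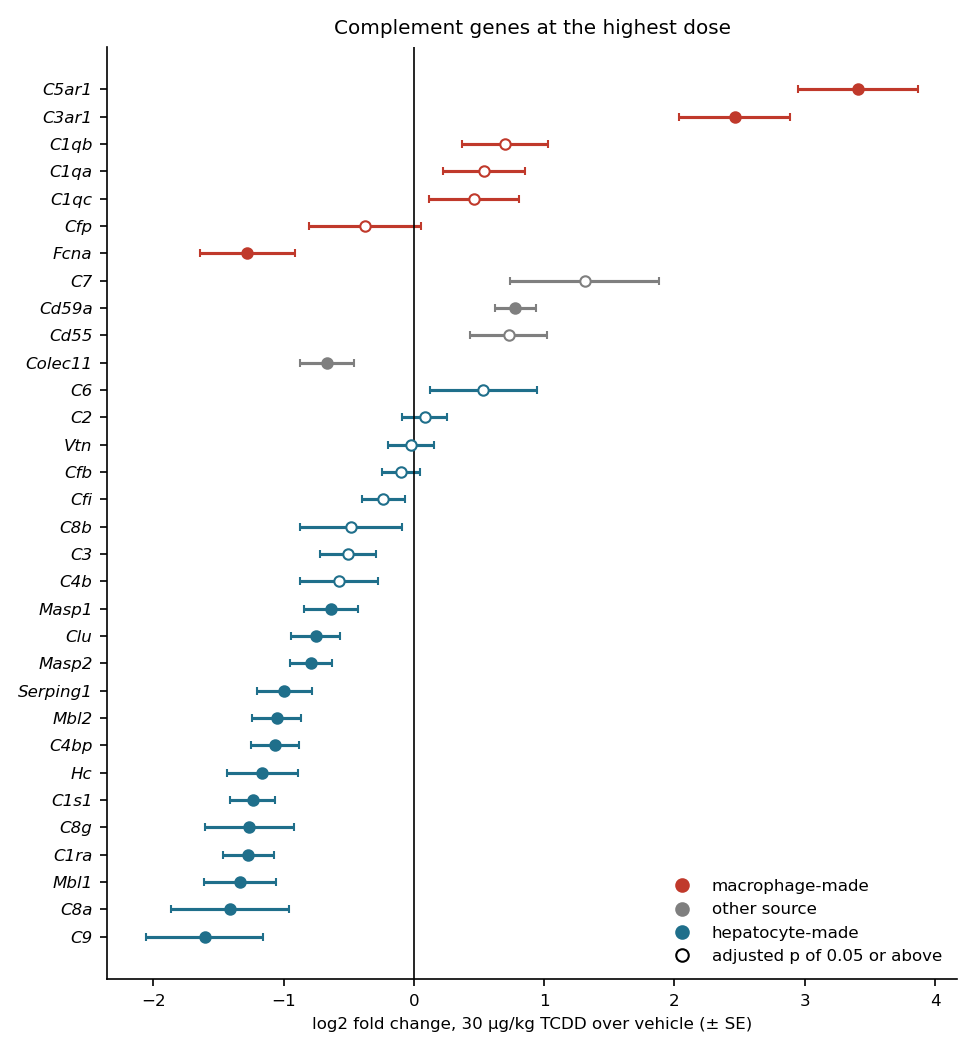
Log2 fold change of 32 complement genes at 30 µg/kg TCDD over vehicle (x axis, ± SE, 3 livers a group), ordered within the assumed source of the protein; filled points have an edgeR adjusted p below 0.05. The lowest point is C9 at -1.61 and the highest is C5ar1 at 3.41, and no hepatocyte-made gene has a filled point right of 0.

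The C1 proteases were among the members with the smallest adjusted p. C1s1, the protease of C1 that cuts C4 and C2, had 144, 238 and 164 CPM at 30 µg/kg, against 449, 384 and 454 CPM in vehicle. C1ra, the protease that activates C1s, had 46.0, 85 and 51.7 CPM at 30 µg/kg, against 164, 125 and 152 CPM in vehicle. Every liver at 30 µg/kg lay below every vehicle liver for both genes, and the second liver at 30 µg/kg was the least lowered. The log2 fold changes were -1.24 ± 0.17 (SE) for C1s1 with an edgeR adjusted p of 4.28e-06, and -1.27 ± 0.20 for C1ra with 1.43e-05. The paralogs C1s2 and C1rb had only 2 and 8 counts over the 3 livers at 30 µg/kg, and 6 and 20 over those of vehicle. Of the exonic bases of C1s1 18.4% are shared with Gm16567 on the other strand, which had 17 counts at 30 µg/kg and 18 in vehicle.

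The substrates of C1s were not called. C4b, the gene of complement C4, had 465, 808 and 1186 CPM at 30 µg/kg, against 1159, 1188 and 1317 CPM in vehicle. The third liver at 30 µg/kg overlapped the vehicle range and the first had less than any vehicle liver. The log2 fold change was -0.58 ± 0.30 (edgeR adjusted p = 0.138), and C4b became called lower, at -0.91 with an adjusted p of 0.0342, when the third liver was left out. That liver also had 1997 CPM of Saa1, the acute phase gene of serum amyloid A, against 113 and 190 CPM in the other 2 livers at 30 µg/kg, and the part of an acute phase in its C4b level was not tested. C4a, its close copy, had 485 counts at 30 µg/kg and 312 in vehicle, and reads that match both copies make either value uncertain. C2, whose fragment joins C4b in the classical C3 convertase, averaged 42.9 ± 7.15 CPM at 30 µg/kg and 40.5 ± 3.60 CPM in vehicle (SD, n = 3 each), with overlapping groups.

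The 3 chains of C1q, the antibody-binding part of C1, are coded side by side on the minus strand of chromosome 4, C1qb at chr4:136880129-136886187, C1qc at chr4:136889804-136893065 and C1qa at chr4:136895917-136898803 (GRCm38). C1qa had 89.8, 101 and 65.2 CPM at 30 µg/kg, against 79.1, 48.8 and 48.3 CPM in vehicle. C1qb had 88.5, 89.8 and 69.2 CPM at 30 µg/kg, against 66.6, 45.3 and 40.3 CPM in vehicle. C1qc had 90.0, 93.3 and 63.1 CPM at 30 µg/kg, against 83.0, 50.6 and 45.3 CPM in vehicle. The groups overlapped for C1qa and C1qc and did not for C1qb. Log2 fold changes were 0.54 ± 0.31, 0.70 ± 0.33 and 0.46 ± 0.35 for C1qa, C1qb and C1qc, with edgeR adjusted p of 0.186, 0.101 and 0.316. C1qb was called higher by DESeq2, with an adjusted p of 0.0414, and when only the 6 libraries compared were fitted, with 0.0218. In the 26 deeper libraries the ratio of C1qb over C1qa CPM was 0.771 to 1.06 with a median of 0.891, and that of C1qc over C1qa was 0.834 to 1.43 with a median of 0.968.

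All 6 tested members of the lectin route fell at 30 µg/kg, beside 19.4% of all genes called lower. Their median log2 fold change was -0.92. Mbl2, the gene of mannose-binding lectin C, had 312, 408 and 252 CPM at 30 µg/kg, against 721, 555 and 742 CPM in vehicle. Mbl1, the gene of mannose-binding lectin A, had 64.8, 137 and 62.1 CPM at 30 µg/kg, against 167, 238 and 261 CPM in vehicle. Neither lectin's groups overlapped, and again the second liver at 30 µg/kg was nearest to vehicle. The log2 fold changes were -1.05 ± 0.19 (edgeR adjusted p = 9.69e-05) for Mbl2 and -1.33 ± 0.27 (0.000429) for Mbl1.

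Masp2, the protease of the lectin complexes that cuts C4 and C2, had 161, 227 and 149 CPM at 30 µg/kg, against 344, 266 and 319 CPM in vehicle. The groups did not overlap, and the log2 fold change was -0.79 ± 0.16 (edgeR adjusted p = 0.000367). Of the exonic bases of Masp2 54.9% lie in Tardbp on the other strand, and whether the counting used strand is not given in the sources used here. Tardbp averaged 122 CPM at 30 µg/kg and 114 CPM in vehicle. Masp1, the protease that activates Masp2, averaged 40.3 ± 8.29 CPM at 30 µg/kg and 62.8 ± 4.26 CPM in vehicle (log2 fold change -0.64). Colec11, a collectin of the lectin route, averaged 26.8 ± 5.71 CPM at 30 µg/kg and 42.5 ± 9.33 CPM in vehicle (log2 fold change -0.66). Without 1 library the calls of both were lost, at adjusted p of 0.139 for Masp1 without the first liver at 30 µg/kg and 0.0589 without the second vehicle liver, and of 0.113 for Colec11 without the third liver at 30 µg/kg and 0.0988 without the first vehicle liver.

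Fcna, the gene of ficolin A, a sugar-binding lectin of macrophages, had 14, 33.3 and 13 CPM at 30 µg/kg, against 57.8, 48.0 and 41.2 CPM in vehicle. It was the macrophage-made member called lower, with a log2 fold change of -1.28 ± 0.36 (edgeR adjusted p = 0.00842) and groups that did not overlap. Without the first or the third liver at 30 µg/kg the adjusted p was 0.0614 or 0.0599. Among the 9 markers of Kupffer cells, the resident liver macrophages, Clec4f had 44.0, 106 and 41.5 CPM at 30 µg/kg, against 129, 109 and 106 CPM in vehicle, and was called lower. The second liver at 30 µg/kg was the highest of its group for both Fcna and Clec4f. Clec1b was the marker called higher, with a log2 fold change of 0.91 (edgeR adjusted p = 0.00204), and Marco, at 2.21, was higher without overlap and not called (0.0641). The 9 markers summed to 328 to 436 CPM at 30 µg/kg and 389 to 480 CPM in vehicle. The part of Kupffer cells in the Fcna value was not tested.

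C3, the central component of all routes, had the highest level of the list. It had 5993, 9067 and 9352 CPM at 30 µg/kg, against 10694, 11397 and 12566 CPM in vehicle. All 3 livers at 30 µg/kg were below the vehicle range, but C3 was not called, with a log2 fold change of -0.51 ± 0.21 and an edgeR adjusted p of 0.0661. C3 made up 50.5% ± 2.50 of the summed CPM of all 33 members at 30 µg/kg and 50.1% ± 1.96 in vehicle (SD, n = 3 each). Cfb, the factor B gene of the alternative convertase, averaged 52.0 ± 10.4 CPM at 30 µg/kg and 55.8 ± 11.1 CPM in vehicle and gave no direction, with log2 fold changes of -0.10 under TMM and 0.01 under RLE scaling. Cfb shares 79.5% and C2 42.8% of exonic bases with the read-through gene Gm20547, which had 0 counts in both groups. Ambiguous reads, which fall in more than 1 gene, were set aside, so this 0 does not show that the overlap was harmless. The levels of Cfb and C2 may rest on the unshared part of their exons. Cfp, the gene of properdin, which stabilises the alternative convertase, averaged 24.1 ± 8.93 CPM at 30 µg/kg and 31.3 ± 8.38 CPM in vehicle and was not called (edgeR adjusted p = 0.525).

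Of the 7 terminal components 4 fell at 30 µg/kg and 0 rose by edgeR or DESeq2, beside 19.4% and 18% of all genes by edgeR. Their median log2 fold change was -1.16, and C7 was higher at an unadjusted p below 0.05. Hc, the mouse C5 gene, had 165, 338 and 416 CPM at 30 µg/kg, against 654, 743 and 660 CPM in vehicle. C9, whose protein forms the wall of the pore, had 13, 96.5 and 55 CPM at 30 µg/kg, against 149, 208 and 144 CPM in vehicle. The groups did not overlap for either gene, and the first liver at 30 µg/kg was the lowest for both. The log2 fold changes were -1.16 ± 0.27 (edgeR adjusted p = 0.00155) for Hc and -1.61 ± 0.45 (0.00784) for C9. The C9 change was 3.05-fold on the linear scale, the largest fall of the list, and its adjusted p was 0.108 when only the 6 libraries compared were fitted.

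The 3 chains of C8, which joins C9 to the complex, were not alike. C8a had 30.4, 169 and 98.3 CPM at 30 µg/kg, against 192, 338 and 261 CPM in vehicle, and fell with a log2 fold change of -1.41 ± 0.45 (edgeR adjusted p = 0.0180). C8g had 125, 228 and 84.5 CPM at 30 µg/kg, against 396, 299 and 355 CPM in vehicle, and fell with -1.26 ± 0.34 (0.00521). C8b, the neighbour of C8a on chromosome 4, had 46.6, 185 and 92.8 CPM at 30 µg/kg, against 118, 188 and 147 CPM in vehicle, and was not called (edgeR adjusted p = 0.356). The second liver at 30 µg/kg had the highest level of its group for all 3 chains. Without that liver C8b was called lower, with a log2 fold change of -1.12, and without the first liver at 30 µg/kg C8a was not called, with -0.95 and an adjusted p of 0.0811. C8a was likewise not called without the second vehicle liver (0.0724), without the third liver at 30 µg/kg (0.0612) or with only the 6 libraries compared (0.104).

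C6 and C7, which join the complex between C5b and C8, were the terminal members on the higher side, and neither was called. C6 averaged 26.1 ± 10.7 CPM at 30 µg/kg and 18.1 ± 6.45 CPM in vehicle. C7, which is made outside hepatocytes, was near the lower limit at 0.420, 0.423 and 1.54 CPM at 30 µg/kg, against 0.149, 0.575 and 0.241 CPM in vehicle. The log2 fold change of C7 was 1.31 ± 0.57 (edgeR adjusted p = 0.0744) and its call depended on single libraries, with an adjusted p of 0.0254 without the second vehicle liver, 0.0454 without the first liver at 30 µg/kg and 0.0368 without the second.

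Among the soluble regulators C4bp, Serping1 and Clu fell and Vtn and Cfi were not called. C4bp, which holds C4b in check, had 216, 255 and 224 CPM at 30 µg/kg, against 430, 520 and 508 CPM in vehicle. Serping1, the C1 inhibitor gene, had 315, 462 and 491 CPM at 30 µg/kg, against 1053, 694 and 779 CPM in vehicle. Clu, the gene of clusterin, which blocks the late complex, had 892, 822 and 819 CPM at 30 µg/kg, against 1643, 1269 and 1361 CPM in vehicle. The groups did not overlap for any of the 3, and C4bp and Clu were nearly level among the livers at 30 µg/kg. The log2 fold changes were -1.07 ± 0.18 (edgeR adjusted p = 5.83e-05) for C4bp, -0.99 ± 0.21 (0.000555) for Serping1 and -0.75 ± 0.19 (0.00260) for Clu.

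Vtn, the gene of vitronectin, another inhibitor of the late complex, averaged 2839 ± 575 CPM at 30 µg/kg and 2886 ± 212 CPM in vehicle and gave no direction, with log2 fold changes of -0.02 under TMM and 0.09 under RLE scaling. Cfi, the gene of factor I, which cleaves C3b and C4b, averaged 583 ± 79.9 CPM at 30 µg/kg and 685 ± 69.2 CPM in vehicle (log2 fold change -0.23, edgeR adjusted p = 0.276). Of the membrane-bound regulators Cd59a rose and Cd55 was not called. Cd59a, which stops C9 from forming a pore in the host cell, had 99.0, 92.8 and 98.2 CPM at 30 µg/kg, against 51.8, 56.6 and 60.8 CPM in vehicle. The groups were far apart relative to their spread, with a log2 fold change of 0.78 ± 0.16 (edgeR adjusted p = 0.000405). Cd55, which speeds the decay of convertases, had 15.7, 15.4 and 19 CPM at 30 µg/kg, against 11, 11.3 and 7.91 CPM in vehicle. Its groups did not overlap, and it stood just outside the threshold at a log2 fold change of 0.73 ± 0.30 and an adjusted p of 0.0563, against 0.0304 with RLE scaling and 0.0272 by DESeq2.

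Both receptors rose, and both were among the lowest members in vehicle. C5ar1, the receptor for C5a, had 18, 10.8 and 13.8 CPM at 30 µg/kg, against 1.38, 1.46 and 1.16 CPM in vehicle. C3ar1, the receptor for C3a, had 25.5, 10.4 and 19.1 CPM at 30 µg/kg, against 4.07, 3.45 and 2.45 CPM in vehicle. Every liver at 30 µg/kg exceeded every vehicle liver for both. The fold changes were 10.6 for C5ar1 (log2 3.41 ± 0.46, edgeR adjusted p = 3.65e-06) and 5.51 for C3ar1 (log2 2.46 ± 0.42, adjusted p = 8.37e-05). Among 11 markers of recruited macrophages and monocytes 5 were higher and 0 lower at 30 µg/kg, beside 18% and 19.4% of all genes. The other 6, among them Csf1r, Cd68 and Lyz2, were not called. The summed level of the 11 was 441 to 897 CPM at 30 µg/kg and 197 to 271 CPM in vehicle. Gpnmb and Spp1 rose most in CPM among the 11. Gpnmb averaged 155 CPM at 30 µg/kg and 0.186 CPM in vehicle, and Spp1 averaged 197 CPM at 30 µg/kg and 43.2 CPM in vehicle. All 7 tested of 8 neutrophil markers were higher, beside 18% of all genes. Their summed level was 56.3 to 142 CPM at 30 µg/kg and 1.20 to 2.69 CPM in vehicle. The part of these cells in the receptor values was not tested.

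**Figure D2:**
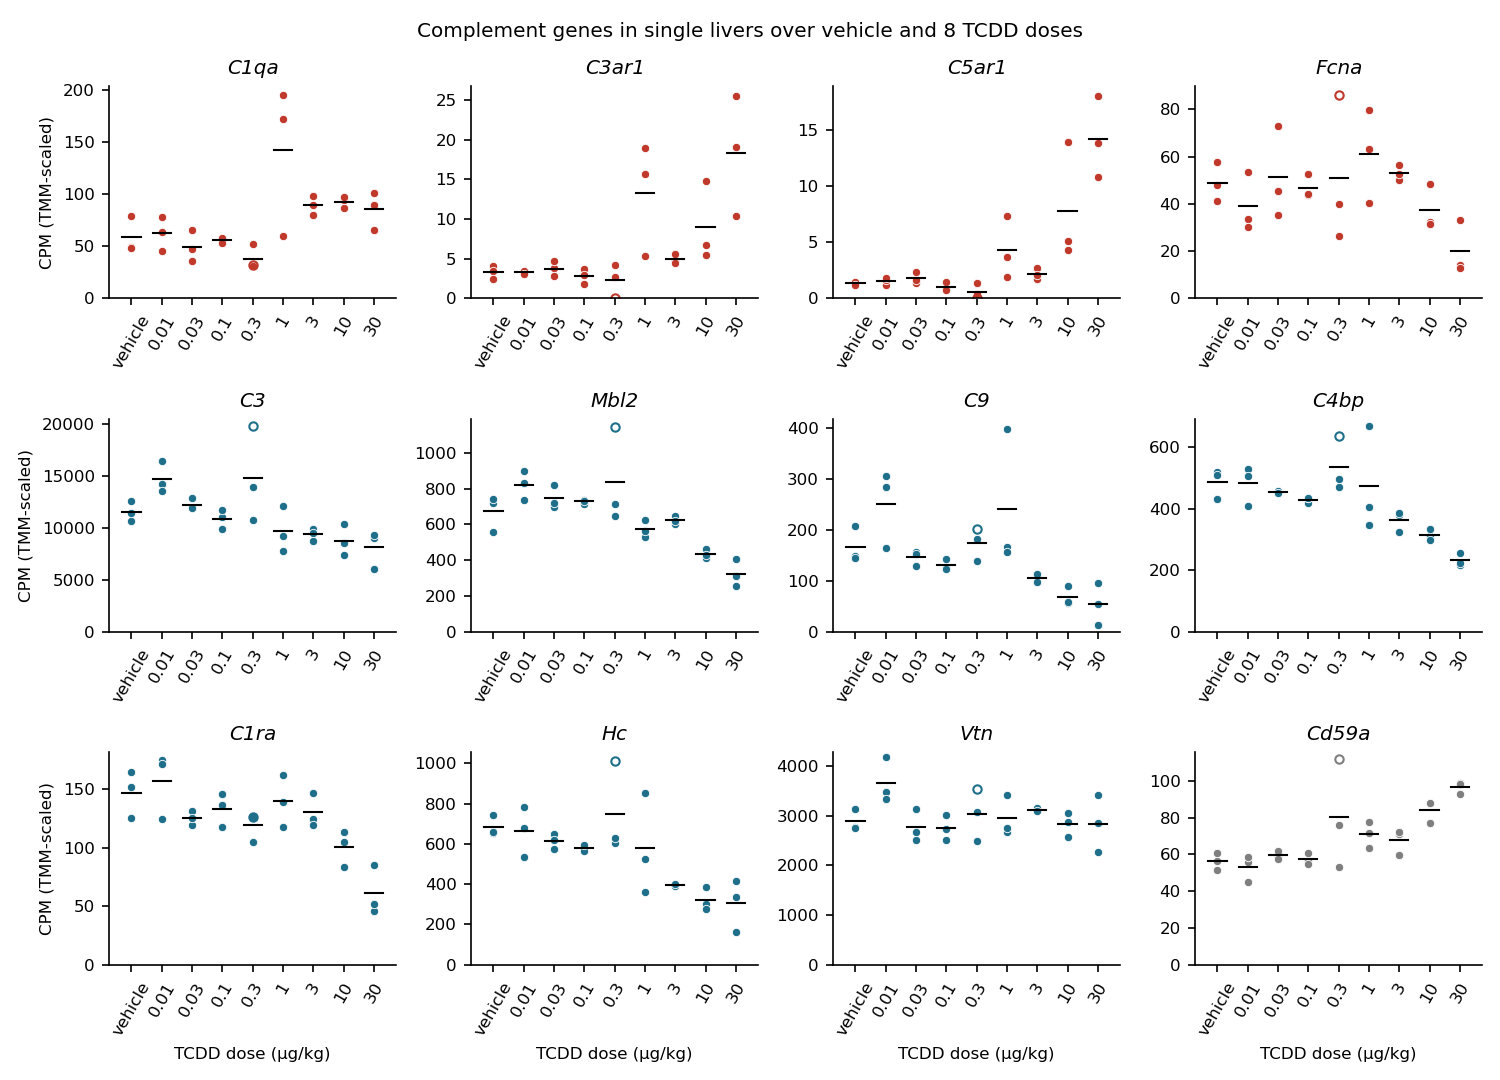
Scaled CPM of 12 complement genes in each liver (points, 3 a group; y axis from 0) over vehicle and 8 doses of TCDD, with group means as lines; red marks macrophage-made, blue hepatocyte-made and grey other members, and the open point is the shallow library at 0.3 µg/kg. C5ar1 reaches 18 CPM at 30 µg/kg against at most 1.46 CPM in vehicle, and C1qa is highest in the first and the third livers at 1 µg/kg.

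The lower doses gave no call. At 0.01, 0.03, 0.1 and 0.3 µg/kg 0 of the 32 members passed the edgeR test, beside 0%, 0.0397%, 0.192% and 1.18% of all genes, and DESeq2 also called 0. At an unadjusted p below 0.05 there were 0 members at each of the first 3 of these doses and 3 at 0.3 µg/kg (C1s1, Cfi and Cd59a). At 3 µg/kg 0 members were called by edgeR or DESeq2, beside 10.1% of all genes, with 3 at an unadjusted p below 0.05 (C1s1, Hc and C4bp). Hc came nearest there, with 395, 389 and 403 CPM at 3 µg/kg, against 654, 743 and 660 CPM in vehicle, no overlap and a log2 fold change of -0.79 (edgeR adjusted p = 0.0639). When only the 6 libraries at 3 µg/kg and vehicle were fitted, 5 members were called, 2 higher and 3 lower.

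At 10 µg/kg 3 members were called higher and 8 lower than in vehicle, beside 11.3% and 11.2% of all genes. The 8 were C1ra, C1s1, Hc, C9, C4bp, Mbl1, Mbl2 and Clu, all hepatocyte-made, and the 3 were C3ar1, C5ar1 and Cd59a. C9 had 56.5, 89.5 and 57.9 CPM at 10 µg/kg, against 149, 208 and 144 CPM in vehicle, and the largest fall, with a log2 fold change of -1.30 ± 0.45 (edgeR adjusted p = 0.0408). C5ar1 had 4.28, 5.15 and 13.9 CPM at 10 µg/kg, against 1.38, 1.46 and 1.16 CPM in vehicle, and the largest rise, with 2.54 ± 0.46 (0.000235). C3ar1 had 5.45, 6.73 and 14.8 CPM at 10 µg/kg, against 4.07, 3.45 and 2.45 CPM in vehicle, and its call was lost without the third liver at 10 µg/kg (0.148) or the third of vehicle (0.0798). Of the 11 calls 3 held whichever library of the 2 groups was left out, those of Hc, C5ar1 and Cd59a. The C9 call was lost without any 1 of the 6, at adjusted p of 0.0511 to 0.151. The other calls were lost without 1 to 4 of the libraries in turn, at 0.0536 for Clu without the first vehicle liver and at 0.0551 to 0.244 for C1ra, C1s1, C4bp, Mbl1 and Mbl2. RLE scaling left 3 higher and 6 lower members, with 61.6% of all calls higher, against 50.4% under TMM. The 0.3 to 10 µg/kg libraries were made with another set of indices than those of vehicle, 0.01 to 0.1 and 30 µg/kg, and for these doses index set and dose cannot be told apart.

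**Figure D3:**
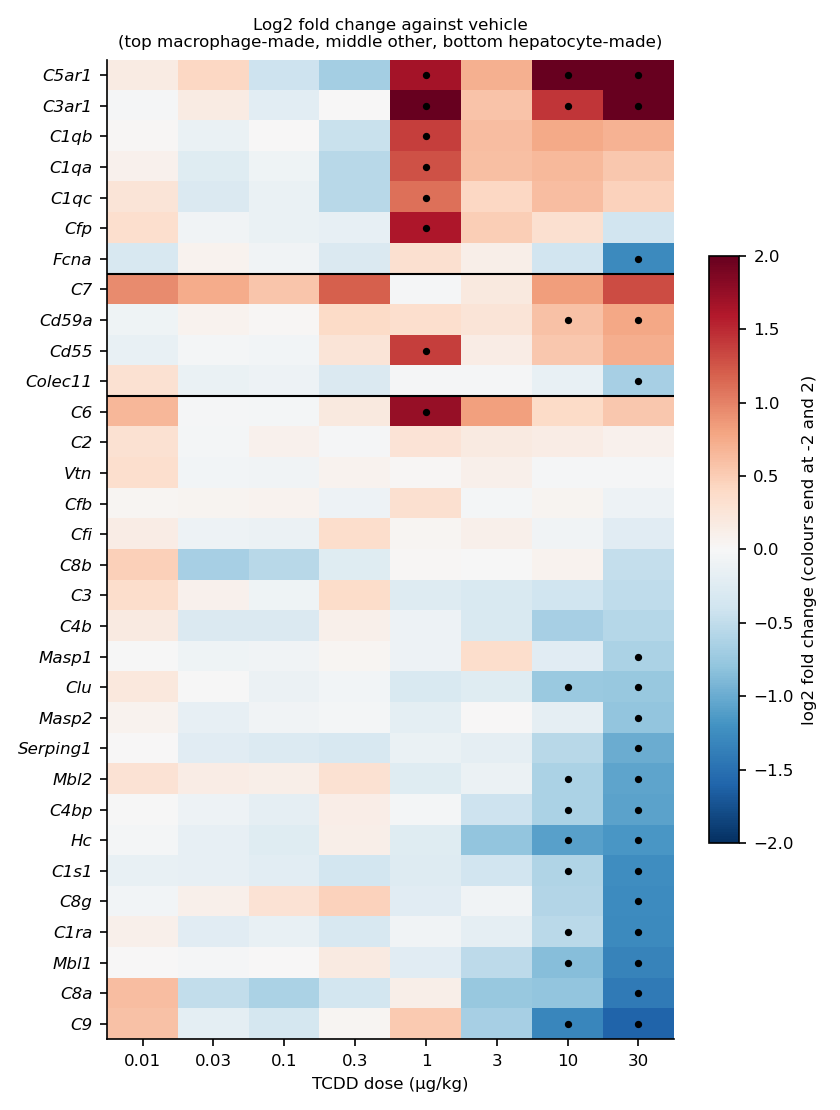
Log2 fold change of 32 complement genes (rows) at each TCDD dose over vehicle (columns, µg/kg), with a dot where the edgeR adjusted p is below 0.05; rows are grouped as macrophage-made, other and hepatocyte-made. Dots stand at 1, 10 and 30 µg/kg only: 8, 11 and 18 members.

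Between 30 and 10 µg/kg 3 members differed, beside 3.2% of all genes, and all 3 were lower at 30 µg/kg. C1ra averaged 60.9 CPM at the highest dose and 101 CPM at the next (log2 fold change -0.73, edgeR adjusted p = 0.0386). C1s1 averaged 182 CPM at the highest dose and 282 CPM at the next (-0.63, 0.0431), and Masp2 179 CPM at the highest dose and 272 CPM at the next (-0.60, 0.0373). The groups overlapped for C1ra and did not for C1s1 and Masp2. All 3 calls were lost without the first or the third liver at 30 µg/kg, or without the first or the second at 10 µg/kg, at adjusted p of 0.106 to 0.273, and these 2 groups differ in index set as well. Fcna, at -0.89, had the lowest and C3ar1, at 1.03, the highest log2 fold change of the list in this comparison, and neither was called (adjusted p of 0.185 and 0.160). Fcna had 14, 33.3 and 13 CPM at 30 µg/kg, against 32.4, 48.5 and 31.5 CPM at the next dose, and C3ar1 had 25.5, 10.4 and 19.1 CPM, against 5.45, 6.73 and 14.8 CPM, and both pairs of groups overlapped.

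At 1 µg/kg the called members were mainly of the class assumed to be macrophage-made. By edgeR 8 members were higher than in vehicle and 0 lower, beside 11.1% and 8.21% of all genes. DESeq2 also gave 8 and 0, and at an unadjusted p below 0.05 there were 10 higher and 0 lower. The 8 were 6 of the 7 macrophage-made members, all but Fcna, and also C6 and Cd55. C1qa had 172, 59.6 and 195 CPM at 1 µg/kg, against 79.1, 48.8 and 48.3 CPM in vehicle. Cfp had 153, 32.9 and 101 CPM at 1 µg/kg, against 41.0, 26.6 and 26.3 CPM in vehicle. C3ar1, the largest rise there, had 19, 5.36 and 15.7 CPM at 1 µg/kg, against 4.07, 3.45 and 2.45 CPM in vehicle (log2 fold change 1.99 ± 0.42, edgeR adjusted p = 0.00184). On the lower side Clu came first, with 1414, 1065 and 991 CPM at 1 µg/kg, against 1643, 1269 and 1361 CPM in vehicle (log2 fold change -0.30, edgeR adjusted p = 0.282), and it was not called. In each called case shown the first and the third livers were high and the second lay in or near the vehicle range. The calls of C1qb, Cd55 and C3ar1 held whichever library was left out. Without the first liver at 1 µg/kg those of Cfp, C5ar1, C6 and C1qc were lost (adjusted p of 0.113, 0.153, 0.0687 and 0.154), and without the third those of C1qa and C1qc (0.0553 and 0.145). Cfp and C1qc were also lost without the second or the third vehicle liver, at 0.0607 to 0.141, and C5ar1 without the third, at 0.057.

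These 2 livers were high in markers of other cells. Marco, a scavenger receptor of Kupffer cells, had 345, 9.93 and 97.7 CPM at 1 µg/kg, against 9.40, 5.23 and 3.17 CPM in vehicle. Ngp, a granule gene of neutrophils, had 253, 0.607 and 25.5 CPM at 1 µg/kg, against 0.0373, 0 and 0.0803 CPM in vehicle. Summed over all 9 Kupffer markers the 1 µg/kg livers spanned 569 to 1682 CPM, and those of vehicle 389 to 480 CPM. Of the 9, 7 were called higher, beside 11.1% of all genes. The 8 neutrophil markers summed to 4.97 to 1027 CPM at 1 µg/kg and 1.20 to 2.69 CPM in vehicle. All 7 of them that were tested were called higher, beside 11.1% of all genes. The first liver alone also had a high acute phase gene, Saa1, at 4934 CPM against 48.6 and 72.2 CPM in the other livers of its group and 31.9, 20.7 and 20.5 CPM in vehicle. In that liver C6 had 104 CPM, C8a 530 CPM, C9 399 CPM and C4b 1898 CPM, against at most 25.5, 338, 208 and 1317 CPM in vehicle. C9 and C8a were then at 167 and 156 CPM in the second liver and 157 and 169 CPM in the third. The part of these cells and of an acute phase in the 1 µg/kg values was not tested.

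Over the whole series a slope was fitted against the rank of the dose, 0 for vehicle to 8 for 30 µg/kg. It was called for 6 members upward and 15 downward, beside 23.3% of all genes in each direction. The downward members were C9, C8a, Mbl1, Hc, Mbl2, C8g, Clu, C1s1, C4bp, C1ra, C3, Serping1, C4b, Colec11 and Masp2. The upward members were C5ar1, C3ar1, C1qb, Cd55, C1qa and Cd59a. Slopes ranged from -0.19 ± 0.06 log2 units per dose step for C9 (edgeR adjusted p = 0.00609) to 0.42 ± 0.06 for C5ar1 (1.19e-06). C3, with -0.09 ± 0.02 (0.00289), and C4b, with -0.08 ± 0.03 (0.0259), were called here and not at 30 µg/kg alone. Masp1 and Fcna were the reverse, lower at 30 µg/kg and not called in the slope (0.271 and 0.226). Leaving out single libraries lost the slopes of C4b, C8g, Colec11 and Masp2, at adjusted p of 0.0557 to 0.102, each of them without the first liver at 30 µg/kg among others. With the index set as a covariate the slopes of C1qa, C1qb and Cd55 were not called, at adjusted p of 0.149, 0.0728 and 0.0861. With doses up to 0.3 µg/kg only, 0 members were called, and 22 were without the 1 µg/kg group. RLE scaling gave 7 upward and 12 downward members, with 61.6% of all calls upward, against 50% under TMM.

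Group means describe the dose curves, and no curve shape was fitted. Mbl2 averaged 673 CPM in vehicle, and its means with rising dose were 821, 747, 728, 834, 572, 622, 434 and 324 CPM. Hc averaged 686 CPM in vehicle, and its means with rising dose were 666, 615, 579, 748, 580, 396, 322 and 306 CPM. C5ar1 averaged 1.34 CPM in vehicle and 0.997 to 1.78 CPM at doses up to 0.1 µg/kg. Its mean at 0.3 µg/kg is left out here, and its means at the doses of 1 µg/kg and above were 4.28, 2.19, 7.78 and 14.2 CPM. The mean of Hc was thus nearly level between 10 and 30 µg/kg, where Hc was not called (edgeR adjusted p = 0.912). The mean of C5ar1 was higher at 30 µg/kg than at 10 µg/kg without passing the test (0.249). Cd59a averaged 56.4 CPM in vehicle, and its means with rising dose were 53.3, 59.5, 57.3, 80.4, 71, 67.6, 84.3 and 96.7 CPM. Fcna stayed between 39.1 and 61.1 CPM up to 3 µg/kg, vehicle included, and its means at the highest pair of doses were 37.5 and 20.1 CPM. The 0.3 µg/kg means include the shallow library, which held the highest Mbl2 and Hc levels of the series, 1144 and 1011 CPM.

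Summed over the 21 hepatocyte-made members, the livers held 15587 ± 3224 CPM at 30 µg/kg and 22672 ± 1199 CPM in vehicle (SD, n = 3 each), a ratio of 0.687 with no overlap between the groups. The 7 macrophage-made members together held 327 ± 59.6 CPM at 30 µg/kg and 254 ± 69.0 CPM in vehicle, a ratio of 1.29, with groups that overlapped. The ratio for the hepatocyte-made sum stayed between 0.640 and 0.769 when single libraries were left out, and that of the macrophage-made sum reached 1.52 without the first vehicle liver. The sum of 14 hepatocyte markers was 0.422 times the vehicle level at 30 µg/kg, with 13 of them called lower, beside 19.4% of all genes. This sum spanned 70868 to 118513 CPM at 30 µg/kg and 154383 to 278491 CPM in vehicle. Alb, the albumin gene, had a log2 fold change of -1.15, and Hnf4a, at -0.20, was the marker not called. The sum of the 11 recruited macrophage and monocyte markers was 2.95 times the vehicle level, with no overlap between the groups. The sum of the 9 Kupffer markers was 0.866 times the vehicle level, with groups that overlapped, as did those of the macrophage-made sum. Of the 9, 7 had log2 fold changes below 0. Among them 1 was called in each direction, beside 18% of all genes called higher and 19.4% lower. The part of hepatocyte number or state in the fall of the hepatocyte-made members was not tested.

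**Figure D4:**
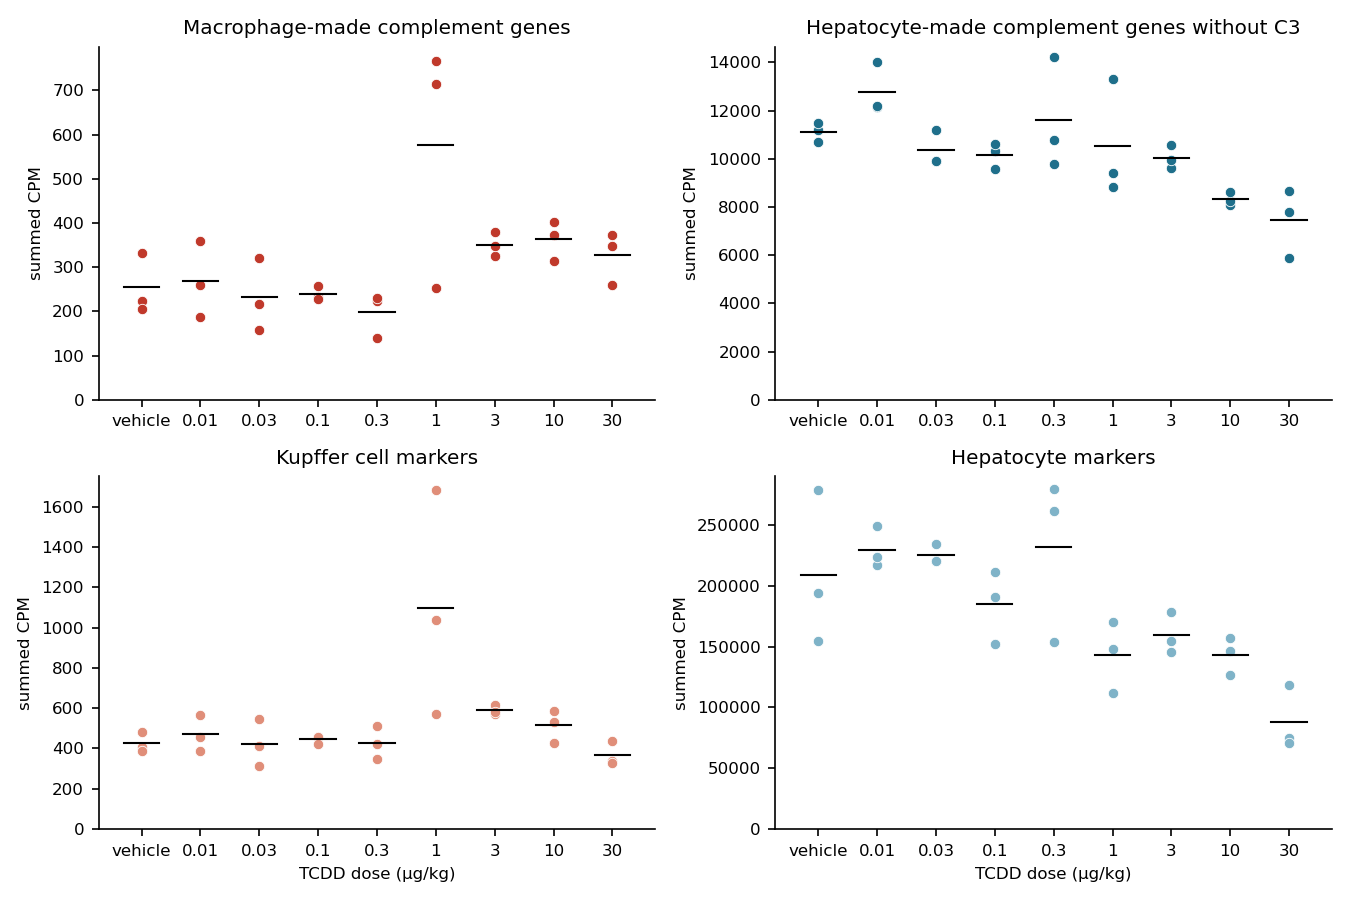
Summed CPM in each liver (points, 3 a group; lines are means; y axes from 0) for the macrophage-made and the hepatocyte-made complement genes (C3 left out of the hepatocyte-made sum), and for Kupffer cell and hepatocyte markers, over vehicle and 8 doses of TCDD. The 2 high livers at 1 µg/kg stand out in both left panels, and the hepatocyte-made sum without C3 averages 7449 CPM at 30 µg/kg and 11119 CPM in vehicle.

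Levels per kilobase of exon place the members beside each other. C3 had 1582, Vtn 1398 and Mbl2 298 CPM per kilobase at 30 µg/kg, against 2246, 1422 and 618 in vehicle, and they were the top of the list in both groups. C8a stood at place 19 at 30 µg/kg and 13 in vehicle, C9 at 20 at 30 µg/kg and 15 in vehicle, and Hc at 15 at 30 µg/kg and 11 in vehicle. C1qa stood at place 9 at 30 µg/kg and 17 in vehicle, and C1qb at 10 at 30 µg/kg and 19 in vehicle. C5ar1 had 5.53 CPM per kilobase at 30 µg/kg and 0.520 in vehicle, which put it at place 28 at 30 µg/kg and 31 in vehicle.

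A further list of 26 complement genes outside the 33 members held 21 that were tested, of which 7 were higher and 8 lower at 30 µg/kg, beside 18% and 19.4% of all genes. The lower ones were largely soluble liver products. Cpn2 and Cpn1, the subunits of carboxypeptidase N, which trims C3a and C5a, had log2 fold changes of -1.35 and -0.83. Cfhr3, which codes for a plasma protein that modulates complement, had -1.20, Colec10, the partner of Colec11, -0.59, and C1rl, a protease related to C1r, -0.38. Susd4, a membrane protein described as a complement inhibitor, averaged 0.155 CPM at 30 µg/kg and 5.44 CPM in vehicle (log2 fold change -5.15 ± 0.50, edgeR adjusted p = 1.47e-08). The higher ones were mainly receptors. Itgam, Itgax and Itgb2, the subunits of complement receptors 3 and 4 on myeloid cells, had log2 fold changes of 2.91, 2.79 and 1.24. Cr2, the complement receptor of B cells, had 3.11, with 1.13 ± 0.523 CPM at 30 µg/kg and 0.125 ± 0.0226 CPM in vehicle, while 4 of 5 B cell markers were also higher. C5ar2, the second C5a receptor, had 1.14, Cd93, once described as a C1q receptor, 1.86, and C1qbp, a mitochondrial protein that binds C1q in vitro, 0.78.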

How the data were processed

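The deposited files hold raw read counts per Ensembl gene, 1 file per liver, and the submitters' processing notes name FastQC 0.11.2, cutadapt 1.4.1, TopHat 1.4.1, SAMtools 0.1.19, HTSeq 0.6.1 and DESeq with build GRCm38. Neither the annotation release nor the strand setting is given in the sources used here. Of all reads counted or set aside, 5.62% to 11.9% per library fell in no gene and 1.79% to 3.49% were ambiguous, and these summary lines were left out. The lowest chi-square per degree of freedom between livers of a group was 6.07 for a pair with the shallow library. For a pair of deeper ones it was 16.7. No pair was thus the same library read again, and every library was counted as its own replicate. These values cannot tell libraries of different mice from separate libraries of the same mouse.

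Genes were kept by edgeR's filterByExpr with a minimum count of 10, which left 15121, and scaled with TMM. A robust quasi-likelihood model with 1 mean per group was fitted to all 27 libraries (R 4.3.3, edgeR 4.0.16, limma 3.58.1), and each dose was compared with vehicle, 30 with 10 µg/kg, and a slope over dose rank was fitted. P-values were adjusted over all tested genes by the Benjamini-Hochberg method. Fold changes are on the log2 scale, TCDD over vehicle. The alternatives were RLE and upper-quartile scaling, DESeq2 1.42.0, other filters, a non-robust fit, an adjusted p below 0.01, a replicate block, fits of the 6 libraries compared, left-out libraries and, for the slope, log10 dose, the index set as a covariate and left-out groups. On simulated counts with 200 changed genes, edgeR recovered 10.4%, 49.2% and 83.3% of changes of 1.5, 2 and 4-fold for 30 µg/kg against vehicle. Of these calls 3.06% were false. For the slope 40.3%, 71.6% and 90.9% were recovered, and 6.25% of the calls were false. The data had 37.4% of all genes called at 30 µg/kg, far more than were changed in the simulation. The adjusted threshold was thus stricter there, and these rates do not carry over to the data.

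The members, the source classes and all other lists were chosen with earlier results of these data known. Values per liver are given for the 12 members with the smallest adjusted p at 30 µg/kg, for the C1q chains, C3, C4b, Hc, both receptors and the members with the largest rise and fall in other comparisons with calls. Values per liver of C8a, C8b, C8g, C7, Cd55 and Cfp and of the markers Marco, Ngp, Saa1 and Clec4f were added after they were seen, and some further genes are not reported here. Gene overlaps were taken from the GRCm38 annotation.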

Additional observations from a re-analysis of the deposited data

How the results depend on the processing

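At 30 µg/kg against vehicle 18 members were called. The count was 15 to 20 under all alternatives and 16 to 20 with single libraries left out. All 18 calls held under every scaling, filter and tool tried. Whichever library was left out 14 of them held, while those of C8a, Colec11, Fcna and Masp1 were lost at least once. Under every alternative 13 held. At 10 µg/kg the 11 calls became 4 at an adjusted p below 0.01, 7 with upper-quartile scaling, 17 with the 6 libraries alone and 4 to 9 with libraries left out. At 1 µg/kg the 8 calls became 5 at an adjusted p below 0.01, 1 with the 6 libraries alone, 0 with the second liver alone and 4 to 8 with libraries left out. At 3 µg/kg the 6 libraries alone gave 5 calls. Between 30 and 10 µg/kg the 3 calls became 0 at an adjusted p below 0.01 and with the 6 libraries alone, 1 without a filter and 0 to 8 with libraries left out. The slope gave 0 calls with doses up to 0.3 µg/kg and otherwise 15 to 22, among them 3 upward and 18 downward with the index set as a covariate, which lost C1qa, C1qb and Cd55. The replicate numbers were not shown to pair the livers, since correlations of same-numbered deviations at 30 µg/kg were 0.107, 0.143 and 0.0647. With the replicate block the counts were 8 at 1, 11 at 10 and 19 at 30 µg/kg, 3 between the highest doses, 21 for the slope and 0 elsewhere, and the block changed 1 call, that of Cd55. The macrophage-made ratio was 1.17 to 1.52 with libraries left out. Signs turned for uncalled members at 30 µg/kg: Cfb was at 0.0088 with RLE and DESeq2 and 0.0093 with upper-quartile scaling and at -0.28 to 0.038 with libraries left out, C2 was at -0.067 to 0.20, and Vtn was at 0.0871 with RLE and DESeq2, 0.0844 with upper-quartile scaling, 0.035 with a minimum count of 50, 0.0097 with the 6 libraries alone and -0.18 to 0.15 with libraries left out. C1qc at 1 µg/kg was at -0.10 with the second liver alone. That liver was chosen after its low values were seen and its spread was taken from the other groups, so the choice fixed the outcome and it measures no stability. Slopes up to 0.3 µg/kg turned to -0.11 for C1qa, -0.078 for C1qb, -0.020 for C3ar1, -0.16 for C5ar1, 0.035 for C3, 0.013 for C4bp, 0.13 for C8g, 0.0075 for Hc, 0.038 for Mbl1 and 0.045 for Mbl2. The cause of these changes was not tested. Levels under about 1 CPM, as for C7, rest on few counts.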

Other observations

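Clotting factors, another large set of plasma proteins made largely by hepatocytes, were mostly lower at 30 µg/kg. Of 19 coagulation genes 15 fell by edgeR, beside 19.4% of all genes, with a median log2 fold change of -0.97, and their summed level was 13335 ± 3831 CPM at 30 µg/kg and 32835 ± 4162 CPM in vehicle (SD, n = 3 each). Plg, the plasminogen gene, had 601, 1035 and 755 CPM at 30 µg/kg, against 2958, 2746 and 2997 CPM in vehicle, with a log2 fold change of -1.86 (edgeR adjusted p = 9.39e-08). Serpinf2, the gene of its inhibitor antiplasmin, had -1.76, and the fibrinogen chains Fga, Fgb and Fgg had -1.39, -1.40 and -1.70. Fgb is also on the list of hepatocyte markers. F8, F9, F10 and F11 were not called. F8 and F11 had log2 fold changes above 0, of 0.44 and 0.13, and the F8 groups did not overlap. The complement and coagulation lists were each compared with vehicle, and the difference between them was not tested.

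The acute phase genes split at 30 µg/kg, with 5 higher and 3 lower of 16 tested, beside 18% and 19.4% of all genes. The share that was lower was near that of all genes. Saa1 had 113, 190 and 1997 CPM at 30 µg/kg, against 31.9, 20.7 and 20.5 CPM in vehicle. Lcn2, the gene of the iron-binding protein lipocalin, had 80.9, 47.1 and 338 CPM at 30 µg/kg, against 9.44, 7.48 and 6.86 CPM in vehicle. The third liver was the highest for both. Saa2, Saa3 and Crp were the other genes called higher, at log2 fold changes of 5.52, 2.49 and 0.63. Hamp, which codes for hepcidin, a hormone that limits iron uptake, fell with -2.71, and Itih3 and Itih4, which code for inhibitor proteins of plasma, with -1.48 and -1.14.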
